A study of Homo sapiens with 12 samples.

Results

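The regions described here were wide H3K4me1 peaks that one condition had and the other lacked. They were chosen by their measured peaks: H3K4me1 peaks of VPS72-overexpressing Huh7 cells, at least 700 bp wide, on chromosomes 1 to 22 and X, that did not overlap any H3K4me1 peak of the control cells, however weak or short. There were 12975 such regions, 27.2% of the 47689 wide H3K4me1 peaks of overexpression cells and part of 155160 H3K4me1 peaks in that list. The other 34714 wide peaks overlapped a control peak and are called shared regions below. Together the overexpression-only regions covered 12.7 Mb.

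Huh7 is a hepatocellular carcinoma line. In both conditions the cells carried a FLAG tag knocked in at the end of the endogenous VPS72 coding sequence, made by Cas9 cutting and a donor plasmid, and colonies that survived blasticidin were grown and genotyped; how many colonies the line came from is not given in the sources used here. Overexpression cells were infected for 24 h with lenti-VPS72-FLAG virus, and control cells with lenti-HA virus, the empty vector. Each condition had 1 chromatin immunoprecipitation sequencing (ChIP-seq) library for each of H3K4me1, H3K27ac, acetylated H2A.Z (H2A.Zac), H2A.Z and FLAG, plus input, or 12 libraries in all, so differences between conditions have no replicate check and no test.

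VPS72, also known as YL1, is a histone chaperone for H2A.Z and a subunit of the SRCAP and TIP60 complexes, which place this variant in nucleosomes; TIP60 also acetylates it. H3K4me1 is written mainly by the KMT2C and KMT2D methyltransferases and lies over enhancers and beside promoters. An enhancer with H3K4me1 alone is usually called primed, and one that also carries H3K27ac active. H2A.Z and its acetylated form are found at promoters and at accessible enhancers, and FLAG here reports tagged VPS72.

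The deposited values are peaks in hg19 coordinates with a fold (summit over local background), a q value and a summit position, all the authors' own. A peak list shows only what passed the caller, at a p of 0.05 and not a q of 0.05, so a region without a peak may still hold some of the mark. A mark in fewer cells and less of it per cell cannot be told apart. H3K4me1 depths recovered from the peaks were 21.8 M (mega) reads with overexpression and 22.6 M in the control; the other histone libraries had 17.9 to 25.02 M. FLAG had 3.06 M reads with overexpression and 4.38 M in the control, and 53.8% of the overexpression FLAG peaks had 1 read at the summit. Percentages below come with Wilson 95% intervals where these are printed, which cover counting error only.

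The overexpression-only regions were the weaker and narrower end of the wide H3K4me1 peaks. Their width, fold, q and reads belong to the measurement that selected them, so they are description. Width had a median of 888 bp and ran to 3223 bp, against a median of 1184 bp in shared regions. The median fold was 3.41 (lowest 1.60, highest 9.01), against 4.05 in shared regions, and the median summit held 11 reads, against 15. A q of 0.05 or less was reached by 9828 overexpression-only regions (75.7%), against 90.7% of the shared ones, and a q of 1e-05 or less by 546 (4.21%), against 26.6%.

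The share of wide peaks that lacked a control peak was lower at greater widths. It was 47.3% at 700 to 799 bp, 37.9% at 800 to 999 bp, 23.6% at 1000 to 1499 bp, 10.5% at 1500 to 1999 bp and 2.50% at 2000 bp or more, where 145 regions remained. The part of width alone in this order was not tested. Nothing changed abruptly at the width limit: the 482 overexpression-only peaks of 700 to 709 bp had a median fold of 3.22, and the 491 just under it, of 690 to 699 bp, one of 3.12. Below the limit lay another 80089 overexpression-only peaks.

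Most of the regions stood higher over the genome average of their library than the median control peak of any width, while their own median lay below that of wide control peaks with an overexpression peak. Summit height, the reads at the summit over that average, had a median of 5.35 in the overexpression-only regions. Control H3K4me1 peaks had a median height of 4.46, a lowest height of 2.79 (5 reads) and a 95th percentile of 8.37. Among wide control peaks alone, the median height was 6.69 for those with an overexpression peak and 5.02 for those without. The median of all control peaks was exceeded by 9724 of the regions (74.9%), and the 95th percentile by 564 (4.35%). Local background, which also decides whether a peak is called, was not compared at these places in the control.

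The reverse class was far smaller. Of 15637 wide control H3K4me1 peaks, 668 (4.27%) lacked an overexpression peak, and none of these had a q of 1e-05 or less. Their median fold was 3.07, and 18.7% had a q of 0.05 or less. The 2 whole lists also differed in strength. A q of 0.05 or less was reached by 85651 of 155160 overexpression H3K4me1 peaks and by 20108 of 124449 control peaks. The part of this difference in the sizes of the 2 classes was not tested. The control list was made with shorter peaks (shortest 214 bp, against 255 bp with overexpression), and with the width limit scaled by that ratio, to 587 bp, 1626 of 22654 control peaks (7.18%) lacked an overexpression peak. This scaled limit was chosen after the values were seen.

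Most overexpression-only regions lay near a control H3K4me1 peak without touching it. The distance from edge to edge had a median of 1919 bp, with quartiles of 588.5 and 7144.5 bp. The nearest control peak was within 500 bp for 21.7% of the regions (21.0 to 22.4%), within 2 kb for 51.0% (50.1 to 51.8%) and within 10 kb for 80.6% (79.9 to 81.2%). At the far end, 2520 regions lay more than 10 kb away, 132 more than 100 kb and 7 more than 1 Mb. Narrower overexpression-only peaks were farther from the control list, with a median of 3506 bp, and the 668 wide control-only peaks were 1386.5 bp from the nearest overexpression peak.

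**Figure D1:**
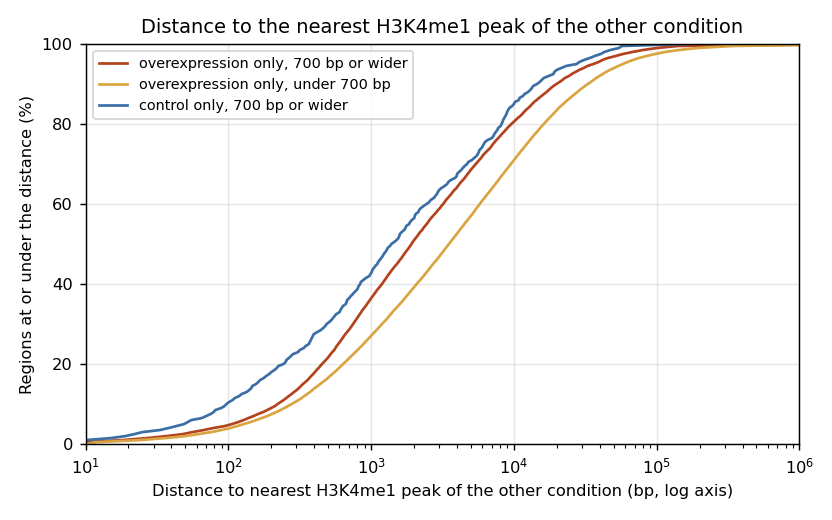
Cumulative share of regions (percent, vertical axis) by edge-to-edge distance to the nearest H3K4me1 peak of the other condition (bp, log axis), for wide overexpression-only regions, narrower overexpression-only peaks and wide control-only peaks. The curve of the wide overexpression-only regions crosses 50% near their median of 1919 bp, left of that of the narrower peaks (3506 bp) and right of that of the control-only peaks (1386.5 bp).

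The control peaks nearby were much like the control list as a whole. Of the nearest control peaks, 14.2% had a q of 0.05 or less, against 16.2% of all 124449 control peaks, and 61.0% of them overlapped some overexpression H3K4me1 peak, against 58.4% of all. Measured to control peaks with a q of 0.05 or less, the median distance was 26151 bp. A control peak lay within 10 kb on both sides of 38.8% of the regions, on one side of 41.8% and on neither side of 19.4%.

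Within their own list the regions stood somewhat more alone than shared regions did. The nearest other overexpression H3K4me1 peak was a median of 808 bp away, against 472 bp for shared regions, and 67.7% had one within 2 kb, against 80.01%. Neighbouring regions were joined into chains wherever the gap between them was within a chosen limit. The largest gap found, 12492 bp, lay just under that limit and was set by it. There were 1798 chains, which held 4082 of the regions (31.5%), and the other 8893 stood singly. These counts depend on the chosen limit. No such share was worked out for shared regions, so 31.5% does not show whether overexpression-only regions cluster more than others. The chain with most regions lay at 3p22.3 (chr3:32145814-32172317), with 7 regions in 26.5 kb; 6 control H3K4me1 peaks lay between them, and the stretch held 4 H3K27ac peaks with overexpression and 5 in the control. Next came chains of 6 at 10q25.2 (chr10:114487036-114512999), with 7 H3K27ac peaks with overexpression and 8 in the control, and at 11q23.3 (chr11:116915800-116941961), with 0 with overexpression and 3 in the control.

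H3K27ac, the mark of active enhancers and promoters, was found at fewer of the overexpression-only regions than of the shared ones, in the cells of either condition. With overexpression, 2452 of the regions overlapped an H3K27ac peak, or 18.9% (18.2 to 19.6%), against 38.3% (37.8 to 38.8%) of shared regions and 33% of all wide regions. With the control H3K27ac list, 2547 did, or 19.6% (18.96 to 20.3%), against 44.8% (44.3 to 45.4%) of shared regions and 38% of all. At H3K27ac peaks with a q of 0.05 or less the shares were 10.5% with overexpression (all wide regions 21%) and 12.9% with the control list (all wide regions 26.7%). Strong acetylation was likewise rarer than at shared regions: 723 regions (5.57%) held an overexpression H3K27ac peak with a q of 1e-05 or less, against 13.7% of shared regions, and 1071 (8.25%) a control one, against 20.6%.

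H3K27ac was listed in both conditions at more of the regions than in either one alone. The mark was in both lists at 1659 regions (12.8%), against 32.4% of shared regions. It was listed with overexpression alone at 793 (6.11%), against 5.95% of shared regions, and in the control alone at 888 (6.84%), against 12.46%. With any deposited peak counted, the one-sided calls were thus nearly even at the overexpression-only regions, whereas at shared regions those of the control outnumbered the others. They were uneven at a q of 0.05 or less, where the counts at overexpression-only regions were 1057 in both, 304 with overexpression alone and 619 in the control alone. Where both lists had a peak, the median of the H3K27ac summit heights was 6.53 with overexpression and 9.08 in the control. The ratio of overexpression to control had a median of 0.764 and was above 1 at 269 of the 1659 regions (16.2%). Shared regions had nearly the same ratio, 0.754, so the lower H3K27ac height was a feature of both kinds of region. Less H3K27ac in the cells and a poorer enrichment of the library cannot be told apart.

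H2A.Zac, the acetylated variant, was listed at more of the overexpression-only regions in control cells than in overexpression cells. It was found at 2341 with overexpression, or 18.0% (17.4 to 18.7%), against 27.2% of shared regions and 24.7% of all wide regions. The control list covered 3383, or 26.1% (25.32 to 26.8%), against 44.0% of shared regions and 39.1% of all. At a q of 0.05 or less the shares were 10.7% with overexpression (all wide regions 14.5%) and 18.7% with the control list (all wide regions 28.6%). Each list thus covered fewer of the overexpression-only than of the shared regions. Both covered 1878 of the regions (14.5%, against 24.30% of shared regions), the overexpression list alone 463 (3.57%, against 2.89%) and the control list alone 1505 (11.6%, against 19.7%). Height over the genome average, where both had a peak, was lower with overexpression at all but 131 of 1878 regions, with a median ratio of 0.652, which was also the median at shared regions.

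H2A.Z itself, the variant that VPS72 binds, showed the same order of the lists at the overexpression-only regions. With overexpression 1492 of the regions had an H2A.Z peak, or 11.5% (10.96 to 12.1%), against 14.9% of shared regions and 14% of all wide regions. In the control list 2573 did, or 19.8% (19.2 to 20.5%), against 31.2% of shared regions and 28.1% of all. The control list was also longer as a whole, with 182213 H2A.Z peaks against 57951 with overexpression, and its part in this difference was not tested. At a q of 0.05 or less the shares were 4.72% with overexpression (all wide regions 5.13%) and 7.18% with the control list (all wide regions 10%). Both lists had a peak at 1051 regions (8.10%, against 11.9% of shared regions). The median height ratio there was 0.923, as at shared regions, and height was higher with overexpression at 37.2% of them, against 35.4% of shared regions. Fold, which is taken over local background, was higher with overexpression at 56.4%, against 47.8% of shared regions.

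FLAG peaks, which report tagged VPS72, were not more frequent at overexpression-only regions than at other wide regions. With overexpression 2153 of the regions had one, or 16.6% (16.0 to 17.2%), against 17.4% of shared regions and 17.2% of all wide regions. In the control 1146 did, or 8.83% (8.36 to 9.33%), against 12.45% of shared regions and 11.5% of all. The order of the conditions turned round at a q of 0.05 or less: 3.42% with overexpression (all wide regions 4.31%) and 5.11% with the control list (all wide regions 6.69%). The whole FLAG lists turned round too, with 551907 peaks with overexpression and 184114 in the control. At a q of 0.05 or less they held 46307 with overexpression and 68395 in the control. The part of list length in these shares was not tested. Of the 2153 regions with overexpression FLAG, 975 (45.3%) had a FLAG summit of 1 read, against 30.0% of such shared regions. Shared regions were wider and could overlap more FLAG peaks, and the part of width in this difference was not tested. Both conditions had FLAG at 648 of the regions (4.99%, against 7.35% of shared regions), with a median height ratio of 0.924 and higher values with overexpression at 45.8%. FLAG ChIP of untagged cells was not analysed here, so a FLAG peak need not be a VPS72 site.

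**Figure D2:**
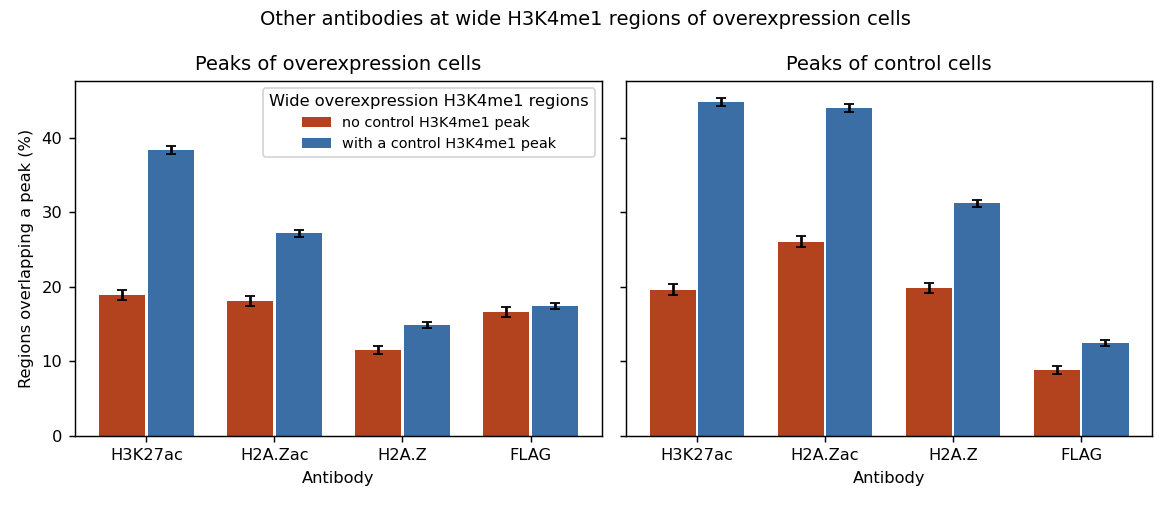
Share of regions (percent) that overlapped a deposited peak of each antibody, in overexpression cells (left) and control cells (right), for overexpression-only regions (no control H3K4me1 peak) and shared regions (with one); error bars are Wilson 95% intervals. The overexpression-only bars are lower in each pair, by most for control H3K27ac (19.6% against 44.8%) and by least for overexpression FLAG (16.6% against 17.4%).

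Most of the overexpression-only regions held none of the 3 other histone marks. At least 1 of H3K27ac, H2A.Zac and H2A.Z was listed at 32.9% (32.06 to 33.7%) in overexpression cells, against 51.8% of shared regions and 46.7% of all wide regions. The control lists gave 40.5% (39.7 to 41.3%), against 65.9% of shared regions and 59% of all. H3K27ac alone was the commonest marked state with overexpression, at 1448 regions (11.16%, against 20.9% of shared regions), and all 3 marks stood together at 385 (2.97%, against 6.05%). In the control, H2A.Zac with H2A.Z was the commonest, at 1083 regions (8.35%, against 10.1% of shared regions), followed by H3K27ac alone at 1063 (8.19%, against 15.5%); all 3 stood together at 682 (5.26%, against 14.7%). In 5608 of the regions (43.2%, 42.4 to 44.1%) no peak of any other antibody, FLAG included, was listed in either condition, against 24.20% of shared regions. Input peaks overlapped 0 of the regions in overexpression cells and 4 (0.031%) in the control, against 14 of all 47689 wide regions (0.029%) with either input list. The input lists were short, with 490 peaks with overexpression and 467 in the control, so few overlaps were possible anywhere.

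Since the overexpression-only regions were weaker and narrower, the shares were also compared within 12 classes of H3K4me1 strength and width. These were 4 ranges of q, set by the quartiles of the overexpression-only regions, by 3 ranges of width. Control H3K27ac, control H2A.Zac and control H2A.Z were each lower at overexpression-only than at shared regions in 12 of 12 classes, with intervals that did not overlap in any class. Control H3K27ac, for example, ran from 10.6 to 35.4% over the classes at overexpression-only regions, and from 16.6 to 60.8% at shared regions. Both highest values came from the class of strongest q and a width of 1000 bp or more. That class had no upper limit and held 15335 shared and 1581 overexpression-only regions, so strength and width were not matched within it. The other classes of 1000 bp or more also had no upper width, and the other classes of strongest q had no upper strength. For overexpression H3K27ac the share was lower in 12 classes and the intervals were apart in 7, for overexpression H2A.Zac and H2A.Z in 10 classes each and apart in 1 each. Overexpression FLAG was lower in 6 of the 12 and apart in 0, and control FLAG lower in 11 and apart in 4. Regions of a library are not replicates, so these are descriptions of the lists.

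The mark peaks that did overlap were less often centred on the regions. Of the overexpression-only regions that overlapped an overexpression H3K27ac peak, 57.9% held the summit of one, against 71.3% of such shared regions; for H2A.Zac it was 60.7% against 72.0%, and for H2A.Z 68.0% against 77.7%. Shared regions were wider, and the part of width in this difference was not tested. A further 21.6% of the overexpression-only regions had an overexpression H3K27ac peak within 2 kb without overlap, against 18.1% of shared regions.

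H3K27ac went with distance from the control H3K4me1 peaks, and the H2A.Z marks did so much less. With overexpression, H3K27ac was at 20.6% of regions within 500 bp of a control H3K4me1 peak, 26.3% at 500 bp to 2 kb, 15.4% at 2 to 10 kb and 11.23% (10.1 to 12.52%) beyond 10 kb; in the control the shares were 22.5, 27.4, 15.3 and 11.3%. Overexpression H2A.Zac lay between 16.7 and 18.8% in all 4 ranges. Control H2A.Z was at 18.3% of the nearest and 22.1% (20.5 to 23.7%) of the farthest regions, and overexpression FLAG at 15.4 and 19.1%. The regions themselves were slightly weaker with distance, with a median fold of 3.50 in the nearest and 3.22 in the farthest range; its part in the H3K27ac shares was not tested.

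**Figure D3:**
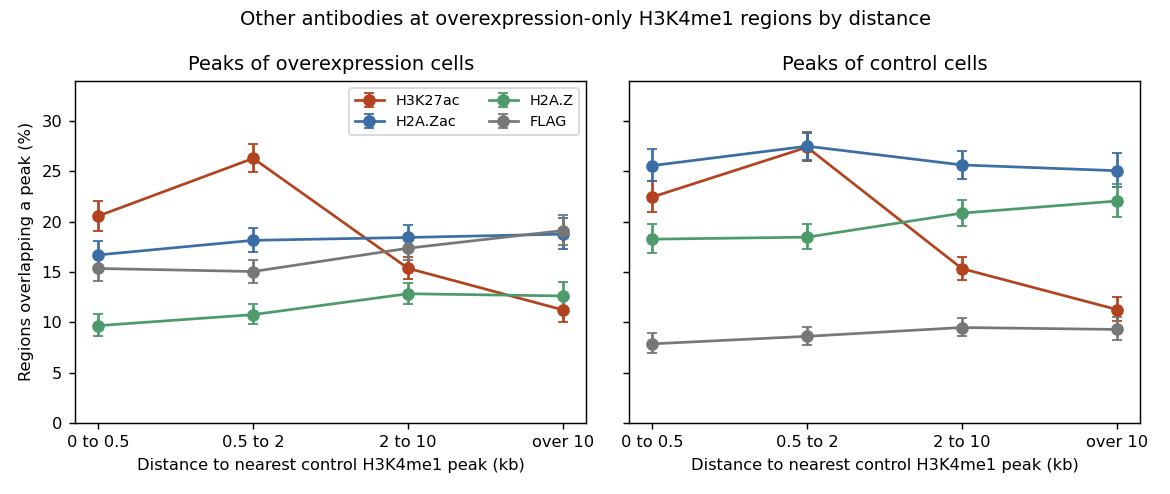
Share of overexpression-only regions (percent, Wilson 95% intervals) that overlapped a peak of each other antibody, by distance to the nearest control H3K4me1 peak (kb, 4 ranges), with peaks of overexpression cells on the left and of control cells on the right. H3K27ac is highest at 0.5 to 2 kb (26.3% with overexpression, 27.4% in the control) and lowest beyond 10 kb (11.23 and 11.3%), while H2A.Zac with overexpression stays between 16.7 and 18.8%.

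The strongest regions by H3K4me1 q differed widely in the other marks. The first, at 7q34 (chr7:139950766-139952684), 1919 bp wide, had an H3K4me1 fold of 9.01 with 28 reads at its summit, 438 bp from a control H3K4me1 peak of fold 4.67. Its H3K27ac fold was 2.88 with overexpression and 5.64 in the control, and no H2A.Z or H2A.Zac peak was listed there. The second, at 6q25.3 (chr6:157950633-157951978), had an H3K4me1 fold of 8.59 and stood 264 bp from a control peak. It carried one of the strongest acetylation signals among the named regions, with an H3K27ac fold of 16.4 (57 reads) with overexpression and 14.4 (64 reads) in the control, and no peak of the other 3 antibodies. Strong H3K27ac was thus listed in both conditions where only the overexpression list had H3K4me1.

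The 3p22.3 region (chr3:35840383-35842378) was of the same kind, with an H3K4me1 fold of 7.69 and an H3K27ac fold of 16.9 (67 reads) with overexpression and 9.49 (74 reads) in the control. The region began 33 bp from a control H3K4me1 peak of fold 2.30, so the 2 H3K4me1 lists nearly met there. At 1p31.3 (chr1:61802332-61803604) the H3K4me1 fold was 7.36 and the H3K27ac fold 7.16 with overexpression and 9.56 in the control, 34 bp from a control H3K4me1 peak. A control H2A.Zac peak of fold 3.09 (11 reads) was also listed there. The 2q32.2 region (chr2:189976223-189977331), with an H3K4me1 fold of 7.63, had only weak H3K27ac, with folds of 2.32 with overexpression and 2.24 in the control.

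At the 3 strongest regions with all 3 other histone marks in overexpression cells, chosen as such, H2A.Zac had the highest fold of these marks in both conditions. The 4p16.3 region (chr4:3074792-3075674), with an H3K4me1 fold of 7.86, had an H2A.Zac fold of 9.55 with overexpression and 12.7 in the control, and an H2A.Z fold of 6.24 with overexpression and 4.68 in the control. Its H3K27ac was weak in both lists (folds 3.22 with overexpression and 2.08 in the control), and FLAG had a peak in the control alone. At 17p11.2 (chr17:17109249-17110270; H3K4me1 fold 7.42) the H2A.Zac fold was 14.1 with overexpression and 13.5 in the control, and the H2A.Z fold 5.37 with overexpression and 4.23 in the control. The H3K27ac fold there was 5.11 with overexpression and 4.67 in the control. At 2q37.1 (chr2:233876445-233878545; H3K4me1 fold 7.30), which lay 19413 bp from any control H3K4me1 peak, all 3 marks had a lower fold with overexpression: H2A.Zac 6.70 with overexpression against 13.07 in the control, H3K27ac 5.11 against 8.50 and H2A.Z 4.12 against 4.83. The control lists held H2A.Zac and H2A.Z peaks at these 3 places as well. That was common: of the 2341 regions with H2A.Zac in overexpression cells, 1878 also had it in the control. For H2A.Z it was 1051 of 1492.

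The 3 strongest regions with FLAG in both conditions, chosen as such, had no H3K27ac peak in either. The same held for 9635 of all 12975 overexpression-only regions (74.3%). At 20q11.22 (chr20:32720431-32721277), with an H3K4me1 fold of 6.04, the FLAG fold was 12.9 (27 reads) with overexpression and 16.9 (40 reads) in the control; the nearest control H3K4me1 peak was 251 bp away. At 2p13.1 (chr2:73511573-73512362; H3K4me1 fold 6.75) the FLAG fold was 3.86 with overexpression and 5.69 in the control, beside H2A.Zac folds of 6.92 with overexpression and 14.7 in the control. At 12q24.13 (chr12:113524564-113525619; H3K4me1 fold 7.37) FLAG was weak, with folds of 2.53 with overexpression and 2.78 in the control.

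The 6 regions chosen for having H3K27ac in 1 condition alone had H3K27ac folds from 1.72 to 7.37. Over all overexpression-only regions with an H3K27ac peak, the median fold was 3.36 with overexpression and 4.01 in the control. The strongest region with H3K27ac in overexpression cells alone, at 21q22.3 (chr21:43083730-43084536; H3K4me1 fold 7.37), had an H3K27ac fold of 3.67, while its H2A.Zac fold was 4.39 with overexpression and 8.13 in the control. The next 2, at 11p14.1 (chr11:29649704-29650993) and 1q21.1 (chr1:145115592-145117436), had H3K27ac folds of only 2.27 and 1.72. In the other direction, the Xq26.2 region (chrX:131613519-131614571; H3K4me1 fold 6.73) had an H3K27ac fold of 7.37 in the control alone, and those at 7q11.21 (chr7:66238309-66239096) and 4q31.1 (chr4:140845837-140847338) folds of 2.79 and 2.71.

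Strong H3K4me1 also stood by itself. The regions at 13q31.3 (chr13:93854996-93855888), 14q22.3 (chr14:56054817-56056446) and 3q21.2 (chr3:124856424-124857193) had H3K4me1 folds of 7.36, 7.43 and 6.51, with 25, 23 and 27 reads at the summit, and no peak of any other antibody in either condition. They lay 5376, 803 and 6630 bp from the nearest control H3K4me1 peak. The widest regions were weaker: 3q27.3 (chr3:186306281-186309503) spanned 3223 bp with an H3K4me1 fold of 5.14 and H3K27ac folds of 3.73 with overexpression and 4.71 in the control. Those at 3p25.3 (chr3:9442421-9445527) and 11p15.2 (chr11:12710199-12713267), of 3107 and 3069 bp, had H3K4me1 folds of 4.15 and 4.18.

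**Figure D4:**
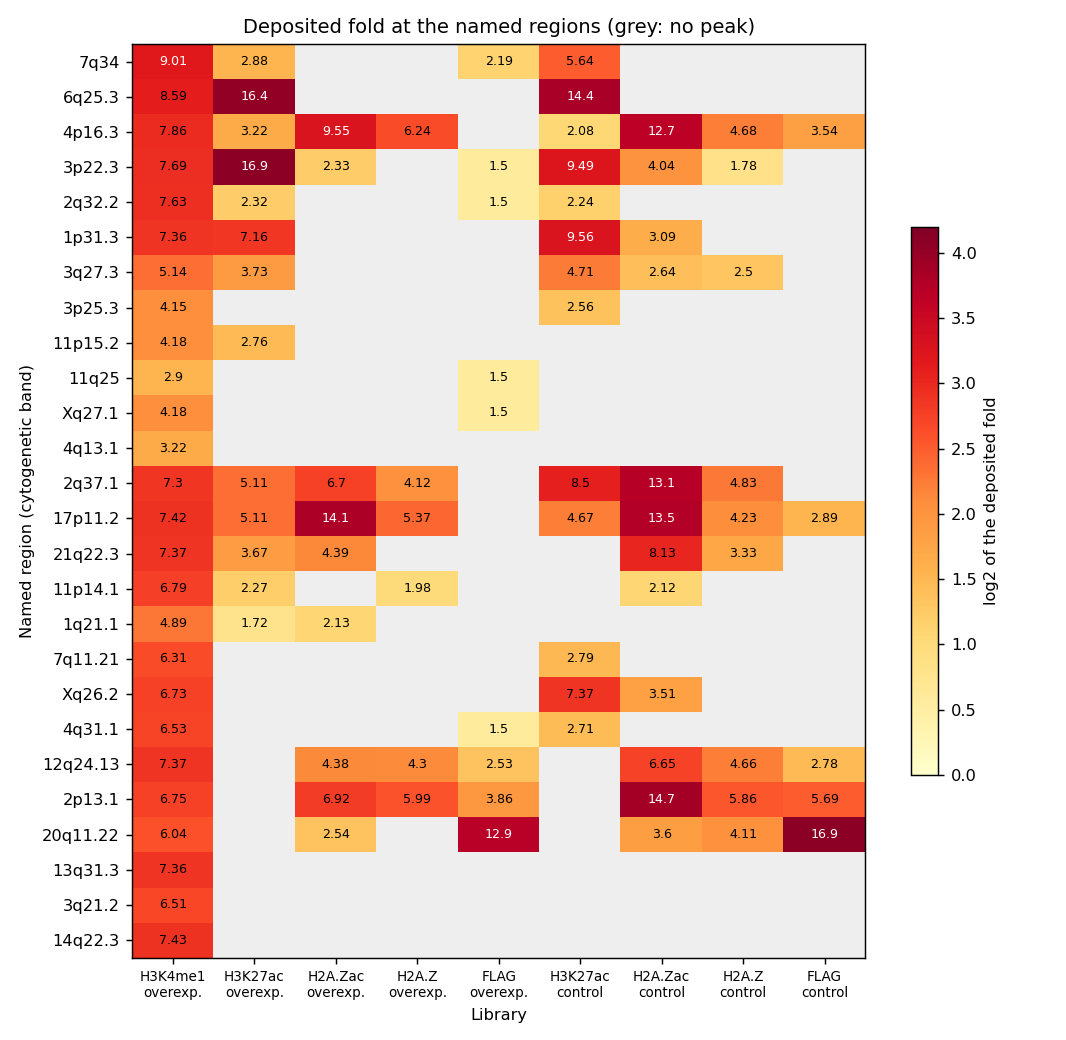
Deposited folds at the 26 named regions (rows, by cytogenetic band) for H3K4me1 with overexpression and for the other antibodies with overexpression and then in the control (columns); colour is log2 of the fold and grey means no peak. H3K27ac reaches 16.9 with overexpression at 3p22.3 and H2A.Zac 14.7 in the control at 2p13.1, and the lowest 3 rows hold H3K4me1 alone.

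The regions farthest from control H3K4me1 lay in long stretches without a control peak. The one at 11q25 (chr11:134610188-134610947) had an H3K4me1 fold of 2.90 with 8 reads, 3410497 bp from a control peak. Those at Xq27.1 (chrX:140024967-140025890) and 4q13.1 (chr4:65028553-65029348) had folds of 4.18 and 3.22 with 12 and 9 reads. Of the 3, the Xq27.1 region stood above the median fold of all overexpression-only regions, 3.41, and the other two below it. The stretches without a control H3K4me1 peak measured 3.81, 7.22 and 2.72 Mb in that order, and held 5, 19 and 11 overexpression H3K4me1 peaks. At these 3 regions the only other peaks were FLAG peaks of 1 read with overexpression, at 11q25 and Xq27.1.

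The share of wide H3K4me1 peaks without a control peak varied over the genome. It was highest on chromosome X at 39.5% (35.3 to 44.0%), chromosome 13 at 38.4% (35.2 to 41.6%) and chromosome 4 at 36.8%, and lowest on chromosome 20 at 19.5%, chromosome 19 at 19.7% and chromosome 22 at 19.8%. Control H3K4me1 peaks were sparse on the first group, with 9.09, 19.5 and 22.2 per Mb, and dense on the second, with 71.8, 82.8 and 56.4 per Mb; the part of this density in the shares was not tested. By Giemsa stain, the share was 25.6% in unstained bands, which are rich in genes, 22.8% (21.7 to 24.0%) in the palest stained ones and 28.5, 31.2 and 35.9% in the 3 darker grades. The regions themselves were sparser in the darkest bands, at 2.82 per Mb, against 5.29 per Mb in unstained bands.

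**Figure D5:**
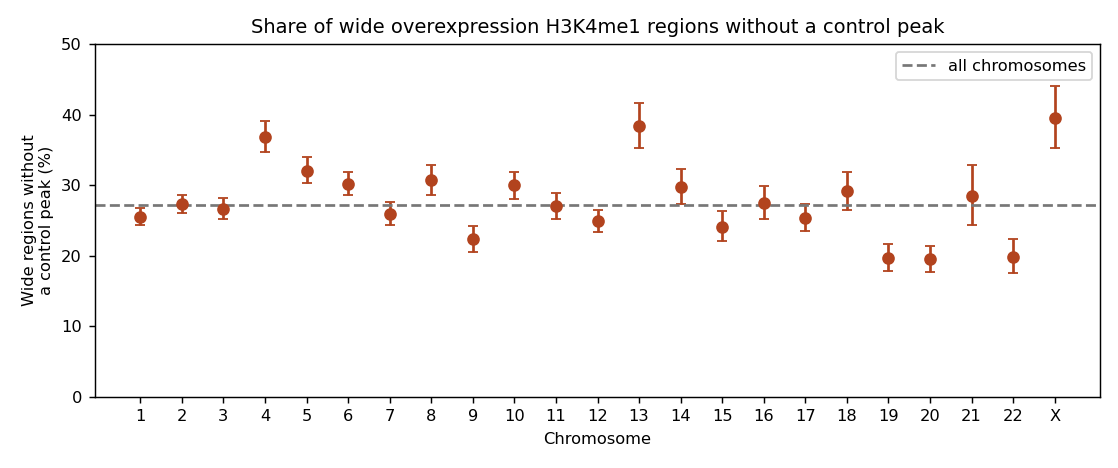
Share of wide overexpression H3K4me1 regions without a control peak (percent, Wilson 95% intervals) on each chromosome; the dashed line is the share over all of them, 27.2%. Chromosomes 4, 13 and X lie above the line at 36.8 to 39.5%, and 19, 20 and 22 below it at 19.5 to 19.8%.

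Among 382 cytogenetic bands with at least 50 wide H3K4me1 peaks, the share without a control peak ran from 7.58% at 3q12.1 (5 of 66) to 53.2% at 1p31.1 (42 of 79), with a median of 25.28%. Bands that hold genes of the pathway named by the study, or genes of liver and liver cancer, fell on both sides of this median. The band of ALB and AFP, which encode albumin and alpha-fetoprotein, 4q13.3, had 42 of 101 (41.6%, 32.5 to 51.3%), and that of the oncogene MYC, 8q24.21, 35 of 80 (43.8%, 33.4 to 54.7%). The band of CCND1 and FGF19, 11q13.3, which encode cyclin D1 and a bile acid hormone, had 10 of 98 (10.2%, 5.64 to 17.8%). Closer to the median were the bands of the stress factor ATF3 (1q32.3, 34 of 151), the lipogenic regulator SREBF1 (17p11.2, 42 of 190), fatty acid synthase FASN (17q25.3, 51 of 194), the kinase MTOR (1p36.22, 35 of 180) and VPS72 itself (1q21.3, 30 of 141). Further bands were those of the desaturase SCD (10q24.31, 5 of 35), alpha-1-antitrypsin SERPINA1 (14q32.13, 6 of 36), apolipoprotein APOB (2p24.1, 25 of 81) and the liver transcription factor HNF4A (20q13.12, 28 of 128). A band holds many genes, so these counts do not place a region at the gene.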

How the data were processed

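Peak lists of 12 ChIP-seq libraries were used. The authors called peaks with MACS2 for each library, and also used FastQC, Trimmomatic and BWA, per the submitters' processing notes, which give no versions. The deposited fold is a ratio of summit to local background; p and q were deposited as −log10 values. The control library for calling is not given in the sources used. The notes name hg19 and hg38; all peaks lay within hg19 lengths on 23 of 23 chromosomes, so coordinates are hg19, 1-based. Genotype labels of the overexpression libraries run from VPS72 to VPS77, and the control H3K4me1 list spells its peaks H3k3me1; titles were followed.

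The overexpression-only regions and all bands and lists were chosen with earlier results of these data known. Overlap meant at least 1 bp. Distances run between edges. Whole reads per summit were worked out from fold and −log10 p under the MACS2 model (tolerance 0.002; 99.998% or more of each ChIP library); depths assume a genome of 2.7 Gb. Recovery and overlap were tested on simulated data. Named regions were, by q: 6 strongest, 3 strongest for each combination of other antibodies described; also the 3 widest, the 3 farthest and the 3 fullest chains (4 other chains tied at 6 regions). Gene starts and sequences were not used, as the reference at hand is of another build. Counts for some of the gene bands are not reported here. Bands are from circlize 0.4.16; Python 3.11.15, pandas 2.3.3, numpy 2.4.6, scipy 1.17.1 and matplotlib 3.10.9 were used.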

Additional observations from a re-analysis of the deposited data

Results flagged for a closer look

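Outside chromosomes 1 to 22 and X, which the definition of the regions leaves out, 42 of 127 wide H3K4me1 peaks of overexpression cells overlapped no control H3K4me1 peak, and 5 of 45 wide peaks of control cells overlapped no overexpression peak. They came up because they lie in data outside the comparisons above. They were not analysed further.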

How the results depend on the processing

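The number of overexpression-only regions followed the rule that chose them. It was 12975 as reported, 28692 with a minimum width of 500 bp, 4360 with 1000 bp, 9828 with peaks of q 0.05 or less and 546 with q 1e-05 or less. It was 34640 when only control peaks with a q of 0.05 or less counted, 8245 when no control peak was allowed within 1 kb and 32243 when an overlap had to cover at least 50% of the overexpression peak. The median distance of 1919 bp (95% interval 1841 to 1986) became 2657 bp from summit to summit, 26151 bp to control peaks with a q of 0.05 or less, and 2293.5 and 1649 bp with minimum widths of 500 and 1000 bp. That interval comes from the regions alone and does not cover differences between libraries, as each condition had 1 H3K4me1 library. The share with another histone mark in overexpression cells, 32.9%, became 18.4% for marks with a q of 0.05 or less, 24.7% for an overlap of at least 50% of the shorter peak, and 27.4 and 39.3% with minimum widths of 500 and 1000 bp. Like the length of the whole FLAG lists, the share with FLAG, overexpression minus control, reversed with the q limit. The difference was 7.76 points for any peak, where 975 of the regions with overexpression FLAG had a FLAG summit of 1 read, and -1.69 points at a q of 0.05 or less. The same difference kept its sign for H3K27ac (-0.73 and -2.43 points), H2A.Zac (-8.03 and -7.98) and H2A.Z (-8.33 and -2.46); these limits on the differences, and the scaled width for control-only peaks (668 against 1626), were added after seeing the data. No paired analysis was possible because each group has 1 library. With single libraries and a p limit on the lists, enrichment of the whole H3K4me1 library and a gain at these regions cannot be told apart.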
